A study of Mus musculus with 6 samples.

Results

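The nuclear lamins and the membrane proteins that hold them were followed in mouse endothelial cells with and without overexpression of RBPMS, an RNA-binding protein. The set was given by name and holds 10 genes of the 54532 in the deposited count table: Lmna, Lmnb1, Lmnb2, Lbr, Tmpo, Emd, Lemd3, Sun1, Sun2 and Syne2. All 10 were found in the table under these symbols, and all 10 passed the filter on low counts in both fits described here. Control cells had received a lentivirus carrying an empty vector and the other cells a lentivirus for RBPMS overexpression, so both groups had been infected, and both were harvested after 72 hours. The labels give no strain, age or vessel of origin for the cells, and they do not say whether the 3 libraries of a group came from separate cultures. P-values here therefore measure the spread between these libraries, which may be technical.

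The nuclear lamina is a meshwork of intermediate filament proteins lining the inner nuclear membrane. A-type lamins (Lmna) are linked to nuclear stiffness and are abundant in cells under mechanical load, such as the endothelium under flow, while B-type lamins (Lmnb1, Lmnb2) stay tethered to the membrane by a farnesyl group. Lamin B receptor (Lbr), the LEM domain proteins (Tmpo, Emd, Lemd3) and the SUN-nesprin bridge to the cytoskeleton (Sun1, Sun2, Syne2) connect the lamina with chromatin on one side and with the cytoplasm on the other. Loss of lamin B1 is a widely used sign of cellular senescence, and the level of its mRNA also varies with proliferation.

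The last codons of the lamin transcripts are shown because they bear on what a count per gene can show. The ends of 3 coding sequences are given 5′ to 3′ from the GENCODE M21 models on GRCm38, with the 4 codons of the farnesylation box in capitals. The lamin A end is split over 2 exons, and the lamin C end lies at chr3:88483297-88483332 and the lamin B2 end at chr10:80902859-80902894, all on the minus strand.
Lamin A (Lmna-201): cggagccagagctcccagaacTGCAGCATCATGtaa
Lamin C (Lmna-203): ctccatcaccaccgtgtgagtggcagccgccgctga
Lamin B2 (Lmnb2-201): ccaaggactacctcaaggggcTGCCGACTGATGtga
Lamin A (665 codons before the stop) and lamin C (574 codons) are made from the same gene, and the lamin C end holds no such box. The deposited counts are given per gene, so lamin A and lamin C transcripts are summed in every Lmna value below.

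The libraries held 15779567 to 23076124 counts each, and 19799 to 21087 genes had at least 1 count. Rbpms itself was measured at 57.1, 56.8 and 55.2 CPM (counts scaled to library size with edgeR's TMM factors) in the controls and at 131, 148 and 133 CPM with RBPMS, and the groups did not overlap. Control replicate 3 stood apart from the 5 other libraries: its log2 levels correlated with theirs across genes at 0.959 to 0.965, against 0.993 to 0.997 among the others. Relative to the other controls its levels followed gene length, when genes were put in 5 classes of length: the shortest class (57 to 1933 bases) had a median log2 difference of 0.52 and the longest (7049 to 123179 bases) one of -0.52. Fold changes and lamin ratios are therefore given with and without that library, while levels per length and correlations use all 6. All 10 endothelial markers checked (among them Pecam1 and Cdh5) were present, with a summed level of 18073 to 18564 CPM in control replicates 1 and 2, 12272 CPM in control replicate 3 and 15814 to 16705 CPM with RBPMS. Smooth muscle and pericyte markers summed to 1.73 CPM or less, fibroblast markers to 7.79 CPM or less and cardiomyocyte markers to 4.19 CPM or less, with Rgs5 and Actn2 at 0 counts. The leukocyte list summed to 41.4 to 46.6 CPM in the controls and 53.3 to 58.3 CPM with RBPMS, nearly all of it Cd68, with Adgre1 and Cd3e at 0 and 1 of 6 markers at 1 CPM or more. The epithelial and mesothelial list, mostly Msln, summed to 21.4 to 26.1 CPM and 17.0 to 21.2 CPM, with Epcam and Krt18 at 0 and 2 of 7 markers at 1 CPM or more. These last 2 lists did not overlap between the groups. Without control replicate 3 the endothelial list did not overlap either, being lower with RBPMS. The part of these lists in the results below was not tested.

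Lamin B1 and Tmpo were lower with RBPMS, and the other 8 genes did not pass the test. In the fit without control replicate 3 (edgeR quasi-likelihood test, Benjamini-Hochberg adjusted p under 0.05 over 14123 genes), 2 of 10 genes were called, both lower, where 3.43% of all genes were called lower and 3.81% higher. With all 6 libraries, edgeR called 0 of the 10, and 0% of the 13898 genes tested. Before adjustment, p was under 0.05 in that 6-library fit for 1050 genes, with Lmnb1 alone among the 10. On the same libraries DESeq2 called 56 genes, none of the 10, and limma-voom called 0, whereas limma-voom with library quality weights called 1087 genes, Lmnb1 and Tmpo among them. Fold changes lay below 0 on the log2 scale for 9 of 10 genes without control replicate 3 (median -0.12, against -0.00 over all genes) and for 7 of 10 with it (median -0.07, against -0.01). Levels did not overlap between the groups for 7 of the 10 genes in 5 libraries, all lower with RBPMS, where 19% of all genes were lower without overlap. In 6 libraries this held for Lmna and Lmnb1, where 12.5% of all genes were lower without overlap.

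**Figure D1:**
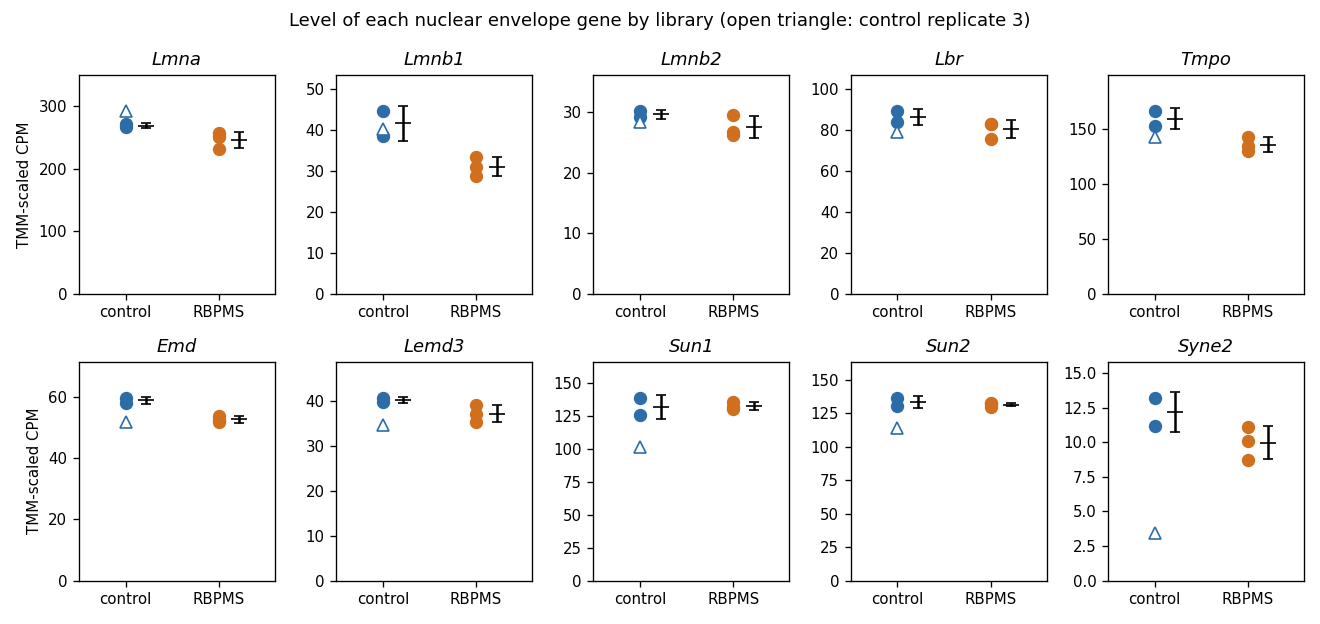
Level of each of the 10 genes in each library (CPM, TMM-scaled, one panel per gene, each axis starting at 0), with control libraries beside RBPMS libraries and control replicate 3 as an open triangle. Bars are the mean ± SD, for the controls without control replicate 3. Lmnb1 is between 38.7 and 44.6 CPM in the controls and between 28.7 and 33.4 CPM with RBPMS, while Syne2 in control replicate 3, at 3.44 CPM, lies far below every other library.

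Lmnb1 (ENSMUSG00000024590, chromosome 18, 56707813 to 56753424, plus strand of mm10), which encodes lamin B1, was counted 710, 627 and 914 times in control replicates 1 to 3 and 588, 668 and 610 times with RBPMS. As levels these were 44.6, 38.7 and 40.3 CPM in the controls and 28.7, 31.1 and 33.4 CPM with RBPMS. Each control library was above each RBPMS library, and control replicate 3 sat between the other controls. The mean fell by 25.4%, from 41.7 ± 4.20 CPM (SD, n = 2) to 31.1 ± 2.34 CPM (SD, n = 3), without control replicate 3. The log2 fold change was -0.42 ± 0.084 (SE, edgeR adjusted p = 0.00300), and with all 6 libraries it was -0.41 ± 0.11 (edgeR adjusted p = 0.587). The size was thus nearly the same in both fits, and the call was present in 1 of them. Leaving out control replicate 1 as well gave -0.32 (edgeR adjusted p = 0.0980), and leaving out control replicate 2 instead gave -0.52 (edgeR adjusted p = 0.00482). Either leaves 1 control library, which is assumed to vary like the RBPMS libraries, so the call depended on which control was kept.

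Lmnb2 (ENSMUSG00000062075, chromosome 10, 80901203 to 80918245, minus strand), the other B-type lamin, was at 29.2, 30.2 and 28.3 CPM in the controls and at 29.6, 26.7 and 26.3 CPM with RBPMS. The groups overlapped, since RBPMS replicate 1 lay among the controls. It had a log2 fold change of -0.11 ± 0.081 in 5 libraries (edgeR adjusted p = 0.507) and of -0.09 ± 0.10 in 6 (edgeR adjusted p = 0.691).

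Lmna (ENSMUSG00000028063, chromosome 3, 88480147 to 88509956, minus strand) was the most abundant of the set, at 266, 272 and 292 CPM in the controls and 251, 257 and 232 CPM with RBPMS. All controls lay above all RBPMS libraries, and control replicate 3 was the highest of the 6. The log2 fold change was -0.13 ± 0.049 in 5 libraries (edgeR adjusted p = 0.133) and -0.17 ± 0.11 in 6 (edgeR adjusted p = 0.590), so the call was not made in either fit. With a length trend taken out of each library, the 6-library value was -0.26 (edgeR adjusted p = 0.499).

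Balance within the lamina was measured as ratios of CPM per kilobase of gene length, since levels of different genes can be compared only per length. Lamin A/C over the sum of both B-type lamins was 2.09, 2.32 and 2.48 in the controls and 2.58, 2.63 and 2.28 with RBPMS. These overlapped, and the log2 difference of 0.12 had an exact two-sided permutation p of 0.3 in 6 libraries. Lamin B1 over lamin B2 was added after seeing the data. It rests on the same Lmnb1 counts as above, so it is not separate support for the lower Lmnb1. This ratio was 2.21, 1.86 and 2.06 in the controls and 1.41, 1.68 and 1.84 with RBPMS. Every control was above every RBPMS library, and the log2 difference was -0.32 with an exact two-sided permutation p of 0.1, the smallest that 3 against 3 libraries allow. Without control replicate 3 the differences were 0.18 (exact permutation p = 0.3) and -0.31 (exact permutation p = 0.2), where the smallest possible p is 0.1. Adjusted over these 4 tests, each exact permutation p was 0.3.

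**Figure D2:**
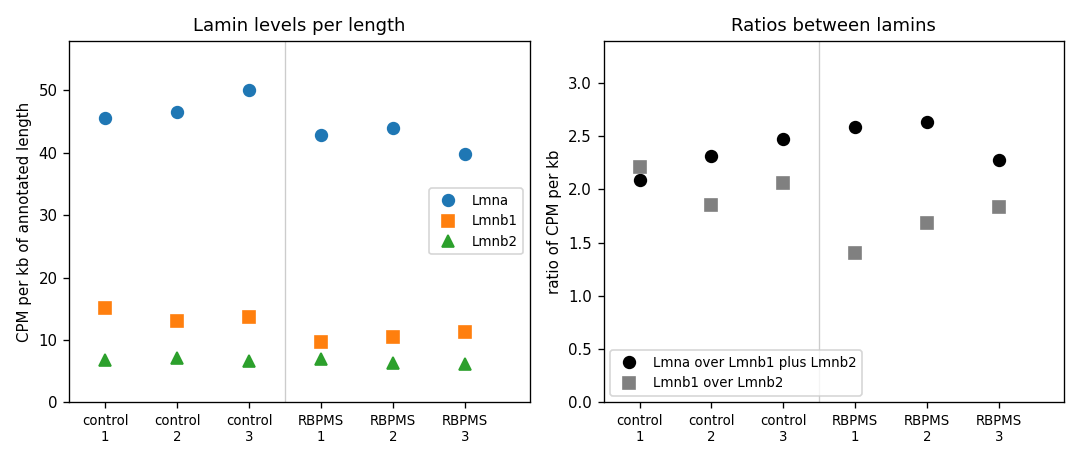
Left, level of the 3 lamin genes in each library (CPM per kilobase of gene length); right, ratio of lamin A/C to the B-type sum (circles) and of lamin B1 to lamin B2 (squares) from these levels. Each point is 1 library and the vertical line parts controls from RBPMS. The B1 to B2 ratio is 1.86 to 2.21 in the controls and 1.41 to 1.84 with RBPMS, and the A to B ratios of the groups overlap.

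Tmpo (ENSMUSG00000019961, chromosome 10, 91147571 to 91181315, minus strand) encodes the lamina-associated polypeptides 2, LEM domain proteins whose membrane forms bind lamin B and whose soluble alpha form binds A-type lamins in the nuclear interior. It was at 167, 153 and 143 CPM in the controls and at 135, 130.3 and 143 CPM with RBPMS. Control replicates 1 and 2 were above all RBPMS libraries, and control replicate 3 was level with RBPMS replicate 3. Without control replicate 3 the mean fell by 14.8%, from 160 ± 9.62 CPM (SD, n = 2) to 136 ± 6.51 CPM (SD, n = 3), a log2 fold change of -0.23 ± 0.052 (edgeR adjusted p = 0.00874). With 6 libraries the value was -0.18 ± 0.11 (edgeR adjusted p = 0.587), and with a length trend taken out it was -0.42 (edgeR adjusted p = 0.483). The 5-library call was lost without RBPMS replicate 1 (-0.22, edgeR adjusted p = 0.0539). With 1 control library, assumed to vary like the RBPMS libraries, it was lost without control replicate 1 (-0.17, edgeR adjusted p = 0.191) and kept without control replicate 2 (-0.29, edgeR adjusted p = 0.0124).

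The sequence before the Tmpo start sites is shown because Tmpo is the one called gene whose promoter windows were searched here. The windows are those of the RefSeq table (GRCm38.p6, 250 bases before to 50 after a start). Windows of 9 of the 10 genes were searched, 13 in all. Lmnb1 was not among them, so the counts below say nothing about its promoter. Both Tmpo entries are given 5′ to 3′ as the 250 bases before the start, on the minus strand. Capitals mark TTTNNCGC, a loose form of the motif of E2F factors, which drive genes of the S phase.
Tmpo, chr10:91171620-91171869: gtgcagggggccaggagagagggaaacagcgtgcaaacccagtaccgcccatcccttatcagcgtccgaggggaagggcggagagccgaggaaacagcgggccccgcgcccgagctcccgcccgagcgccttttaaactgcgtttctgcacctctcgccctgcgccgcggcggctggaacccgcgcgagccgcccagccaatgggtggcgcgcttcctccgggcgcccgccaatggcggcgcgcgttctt
Tmpo, chr10:91170551-91170800: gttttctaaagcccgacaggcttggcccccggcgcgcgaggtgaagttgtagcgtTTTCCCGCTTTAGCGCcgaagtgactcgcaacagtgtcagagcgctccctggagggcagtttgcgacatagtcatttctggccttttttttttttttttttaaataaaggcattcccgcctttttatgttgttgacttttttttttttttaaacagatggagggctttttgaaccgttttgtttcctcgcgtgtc
The first window ends within 50 bases of the starts of Tmpo-201 and Tmpo-202 in GENCODE M21, holds CCAAT at -53 and -21 from the RefSeq start, and holds no TTTNNCGC. The second lies in an intron, with 0 bases in annotated exons and no GENCODE start within 50 bases of its end. It holds TTTNNCGC at -195 and directly after it at -187, and TTTGAA, the core of the cell cycle homology region motif, at -28. Searched on both strands of the full 300 bases, TTTNNCGC was in 1 of the 13 windows, TTTGAA in 3 and CCAAT in 8, against 5.17%, 17.9% and 37.4% of all 32851 windows in the table. The 3 motifs do not overlap one another in these Tmpo windows. A match is a description of the letters and not a site of binding.

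Emd and Lemd3 encode emerin and MAN1, LEM domain proteins of the inner membrane that bind the chromatin bridging factor BAF, and MAN1 also binds SMAD proteins. Emd (ENSMUSG00000001964, chromosome X, 74254687 to 74261548, plus strand) was at 59.7, 58.1 and 52.0 CPM in the controls and 51.8, 52.5 and 53.9 CPM with RBPMS. The first 2 controls lay above all RBPMS libraries and control replicate 3 lay among them. The log2 fold change of Emd was -0.16 ± 0.063 in 5 libraries (edgeR adjusted p = 0.140) and -0.10 ± 0.10 in 6 (edgeR adjusted p = 0.650). Lemd3 (ENSMUSG00000048661, chromosome 10, 120923413 to 120979332, minus strand) was at 39.7, 40.5 and 34.6 CPM in the controls and 38.9, 37.1 and 35.2 CPM with RBPMS. Here control replicate 3 was the lowest of all 6 libraries. Its log2 fold change was -0.11 ± 0.075 in 5 libraries (edgeR adjusted p = 0.433) and -0.05 ± 0.11 in 6 (edgeR adjusted p = 0.840).

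Lbr (ENSMUSG00000004880, chromosome 1, 181815335 to 181843046, minus strand) encodes the lamin B receptor, which tethers heterochromatin to the envelope and also has sterol reductase activity. It was at 89.1, 83.7 and 79.3 CPM in the controls and 83.0, 75.4 and 83.0 CPM with RBPMS. The ranges overlapped in 6 libraries and were apart by under 1 CPM in 5. The log2 fold change was -0.10 ± 0.058 (edgeR adjusted p = 0.340) without control replicate 3 and -0.06 ± 0.10 (edgeR adjusted p = 0.767) with it.

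The SUN proteins and nesprin-2, which form the bridge from the lamina to actin and microtubules, passed the test in neither fit. Sun1 (ENSMUSG00000036817, chromosome 5, 139200637 to 139249840, plus strand) was at 126, 139 and 101 CPM in the controls and 132, 131 and 136 CPM with RBPMS. Sun2 (ENSMUSG00000042524, chromosome 15, 79724070 to 79742536, minus strand) was at 130.4, 136 and 114 CPM and at 130.0, 133 and 132 CPM. For both genes the RBPMS libraries lay within or close to the range of the first 2 controls, and control replicate 3 was the lowest library. In 5 libraries the log2 fold changes were 0.01 ± 0.051 for Sun1 (edgeR adjusted p = 0.967) and -0.02 ± 0.047 for Sun2 (edgeR adjusted p = 0.871). In 6 libraries they were 0.12 ± 0.14 (edgeR adjusted p = 0.669) and 0.05 ± 0.11 (edgeR adjusted p = 0.814), and their sign was not stable over the alternatives.

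Syne2 (ENSMUSG00000063450, chromosome 12, 75818134 to 76110926, plus strand) encodes the giant nesprin-2 and had the lowest counts of the set, 210, 181 and 78 in the controls and 179, 239 and 184 with RBPMS. Its levels were 13.2, 11.2 and 3.44 CPM and 8.75, 11.1 and 10.1 CPM. Control replicate 3 alone was far below the rest. The log2 fold change was 0.12 ± 0.44 with that library (edgeR adjusted p = 0.897) and -0.28 ± 0.13 without it (edgeR adjusted p = 0.205), so 1 library set the direction and the test was passed in neither fit.

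**Figure D3:**
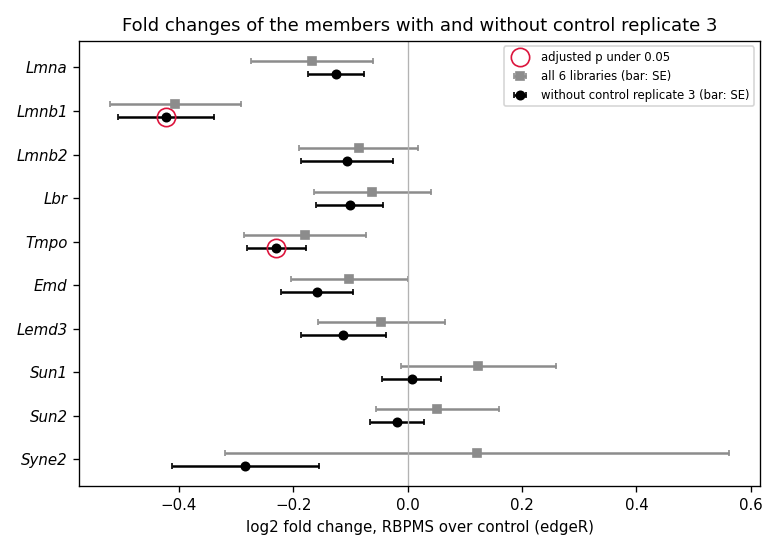
Log2 fold change of each gene, RBPMS over control, from edgeR with all 6 libraries (squares) and without control replicate 3 (circles). Bars are standard errors and rings mark an adjusted p under 0.05, which only Lmnb1 and Tmpo carry, both in the fit without control replicate 3. The SE of Syne2 is 0.44 with control replicate 3 and 0.13 without it.

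Control replicate 3 was below both other controls for 8 of the 10 genes, all but Lmna and Lmnb1. Its log2 difference from the mean of the other controls was 0.12 for Lmna and -0.05 for Lmnb1. For Lmnb2, Lbr, Tmpo, Emd, Lemd3 and Sun2 it ranged from -0.07 to -0.23. Sun1, with 7596 bases, was at -0.38, and Syne2, with 26726 bases, at -1.68, beyond the middle 80% of the longest class of genes (-1.24 to 0.19). Tmpo is in that class too, with 10998 bases, and was at -0.16. The Lmnb1 gene model is 2962 bases long, and genes of its class had a median of 0.29 with the middle 80% between -0.46 and 0.80, so Lmnb1 lay below the median and well inside the range of genes of like length.

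**Figure D4:**
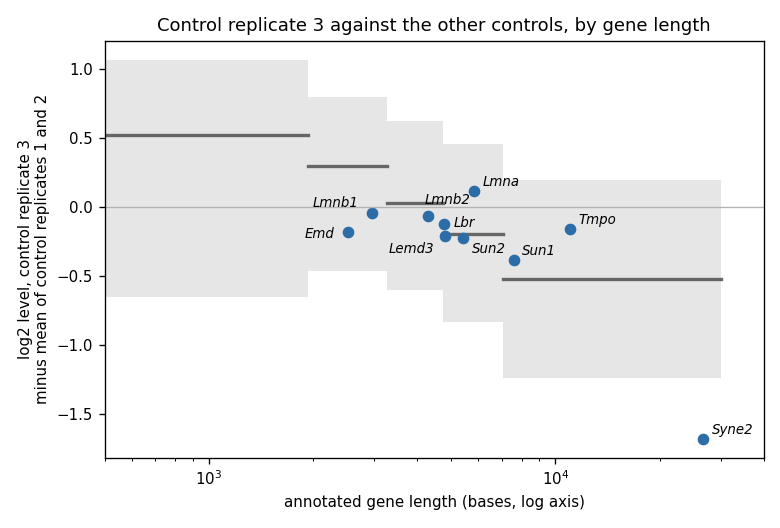
Log2 level in control replicate 3 minus the mean of control replicates 1 and 2, against annotated gene length on a log axis. Horizontal lines are medians of the 5 length classes of all genes tested and shaded boxes hold the middle 80% of each class, with the first and last class drawn only over the axis shown. The medians run from 0.52 for short genes to -0.52 for long genes, and Syne2 is the lowest of the 10 named points at -1.68.

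Per kilobase, Lmna was the highest of the set at 44.8 ± 3.50 CPM per kilobase (SD over all 6 libraries), followed by Sun2 at 23.8 ± 1.44, Emd at 21.7 ± 1.35, Lbr at 17.3 ± 0.968 and Sun1 at 16.8 ± 1.78. Then came Tmpo at 13.2 ± 1.19, Lmnb1 at 12.2 ± 2.04, Lemd3 at 7.84 ± 0.508, Lmnb2 at 6.62 ± 0.368 and Syne2 at 0.360 ± 0.126 CPM per kilobase. The libraries of Sun2 and Emd overlapped in this order, as did those of Lbr and Sun1, of Sun1 and Tmpo, and of Tmpo and Lmnb1. The other neighbours did not overlap. The lengths are those of the gene models in the deposited table, which can exceed that of any 1 transcript. A gene with many exons such as Syne2 (up to 116 exons in a coding transcript) may therefore be set too low in this order. Annotated genes that overlap these 10 had at most 20 counts in any library.

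The gene whose levels over the 6 libraries were most like those of Lmnb1 was Plk1, a mitotic kinase. The comparison took in 9722 genes whose log2 CPM averaged 3 or more. The highest Pearson correlations of log2 levels with Lmnb1 were those of Plk1 (0.998), Dis3l2, an exoribonuclease (0.995), Rrm2, a subunit of ribonucleotide reductase (0.990), Pafah1b1, the dynein regulator LIS1 (0.988), and Arhgap18 (0.985). All 6 points share the group difference and the libraries, so these values are a description. A high correlation did not mean a fall of like size. Without control replicate 3 the log2 fold change was -0.51 for Plk1, -0.32 for Rrm2 (edgeR adjusted p = 0.0141) and -0.43 for Arhgap18 (edgeR adjusted p = 0.0584). For Dis3l2 it was -0.06 (edgeR adjusted p = 0.710) and for Pafah1b1 -0.08 (edgeR adjusted p = 0.318). Plk1 was at 36.1, 31.1 and 32.1 CPM in the controls and 21.7, 23.7 and 25.2 CPM with RBPMS, in the same order of libraries as Lmnb1. Within the set, Tmpo was the closest to Lmnb1 at 0.877, ranked 128, then Emd at 0.713 and Lmna at 0.611. Lbr was at 0.52, Lmnb2 at 0.33, Lemd3 at 0.13, Syne2 at -0.098, Sun2 at -0.28 and Sun1 at -0.40.

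Other envelope genes, cell division genes and senescence genes were counted in 9 lists holding 148 genes, of which 137 were tested without control replicate 3. Of these, 20 were called lower and 3 higher there, where 3.43% of all genes were called lower and 3.81% higher. With all 6 libraries edgeR called 0, and limma-voom with library quality weights called 23. Without control replicate 1 as well, which leaves 1 control library, 4 list genes were called in place of 23, and 415 of all genes in place of 1022. Without RBPMS replicate 1, 14 list genes and 616 of all genes were called. Most of the lower calls were in the lists of cell division and senescence.

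Of 17 cell division markers, 10 were called lower with RBPMS and 0 higher without control replicate 3, where 3.43% of all genes were called lower, and the other 7 did not pass. All 17 lay below 0 there (median log2 fold change -0.33, against -0.00 over all genes). With all 6 libraries none was called by edgeR and 16 of 17 lay below 0 (median -0.25, against -0.01). Plk1 fell from 33.6 to 23.5 CPM (log2 fold change -0.51 ± 0.087, edgeR adjusted p = 0.000859). Top2a, the topoisomerase of dividing cells, fell from 168 to 132 CPM (edgeR adjusted p = 0.00139), Mcm2, a part of the replicative helicase, from 75.5 to 59.5 CPM (edgeR adjusted p = 0.00318) and Ccnb2, cyclin B2, from 21.3 to 15.3 CPM (edgeR adjusted p = 0.00373). In control replicate 3 the short Ccnb2 (1531 bases) was at 33.5 CPM, above the other controls. The longer Top2a (9013 bases) and Mcm2 (6956 bases) were at 125 and 59.2 CPM there, below the other controls and overlapping the RBPMS libraries. With all 6 libraries the log2 fold changes were -0.49 for Plk1, -0.22 for Top2a, -0.23 for Mcm2 and -0.73 for Ccnb2, none of them called by edgeR. In bulk RNA, a smaller share of dividing cells and less of these transcripts in each cell cannot be told apart.

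The senescence list had calls in both directions without control replicate 3. It also holds genes that fall in senescent cells, such as Hmgb2. Its pooled counts and medians therefore have no expected direction and do not bear on senescence. Of 17 genes tested, 1 was called higher and 5 lower without control replicate 3, where 3.81% of all genes were called higher and 3.43% lower (list median log2 fold change -0.16 there and -0.32 with all 6 libraries). Cdkn1a, which encodes the cyclin-dependent kinase inhibitor p21, was at 256, 256 and 246 CPM in the controls and 318, 331 and 299 CPM with RBPMS. All RBPMS libraries were above all controls, and the log2 fold change was 0.30 ± 0.049 in 5 libraries (edgeR adjusted p = 0.000507) and 0.32 ± 0.10 in 6 (edgeR adjusted p = 0.587). Cdkn2c, the inhibitor p18, fell from 57.0 to 45.5 CPM (-0.32 ± 0.069, edgeR adjusted p = 0.00528), and Hmgb2, a chromatin protein that is depleted in senescent cells, from 41.1 to 31.4 CPM (-0.39 ± 0.084, edgeR adjusted p = 0.00565). Igfbp5 fell from 21.5 to 15.6 CPM (-0.45 ± 0.11, edgeR adjusted p = 0.0129), with control replicate 3 at 10.6 CPM, below the RBPMS libraries. With all 6 libraries the log2 fold changes were -0.52 for Cdkn2c, -0.68 for Hmgb2 and -0.19 for Igfbp5, none of them called by edgeR. The secreted factors Cxcl1 and Mmp3, named after their values were seen, were also called lower, Cxcl1 from 59.7 to 47.8 CPM (edgeR adjusted p = 0.0129) and Mmp3 from 2.43 to 1.01 CPM (edgeR adjusted p = 0.0154). Of the called genes, p21 was thus higher, and the listed Cdkn2c, Hmgb2, Igfbp5, Cxcl1 and Mmp3 were lower with RBPMS, as was lamin B1. None of these calls was made by edgeR with all 6 libraries. Of the 17 listed genes tested, called or not, 10 lay below 0 without control replicate 3 and 13 with all 6 libraries.

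In the lists of heterochromatin and lamina partners, the genes called without control replicate 3 were lower. Of 13 heterochromatin partners, 3 were called lower without control replicate 3, where 3.43% of all genes were: the linker histone gene H1f0 (298 to 238 CPM, log2 fold change -0.33 ± 0.046, edgeR adjusted p = 0.000145), Hmgb2, which is in both lists, and Cbx5, which encodes the lamin B receptor partner HP1 alpha (262 to 232 CPM, edgeR adjusted p = 0.0478). H1f0 was at 291, 305 and 379 CPM in the controls and 243, 241 and 229 CPM with RBPMS, without overlap, and its 6-library log2 fold change was -0.45. Cbx5, a long gene, was at 152 CPM in control replicate 3, below all other libraries, and its 6-library log2 fold change was 0.04. The list's median was -0.05. Of 8 lamin processing genes and lamina partners tested, 1 was called lower, where 3.43% of all genes were called lower and 3.81% higher. A single call in a list of 8 is no result about the list. The called gene was Banf1, which encodes BAF, the DNA bridging factor that LEM domain proteins bind. It fell from 122 to 106 CPM (-0.20 ± 0.048, edgeR adjusted p = 0.0125). Banf1 has only 820 bases and was at 223 CPM in control replicate 3, so the 6-library value was -0.55, and edgeR did not call it there. The median of that list was 0.07 without control replicate 3, with 3 of its 8 tested genes below 0.

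The remaining envelope lists had 0 or 1 call each and medians near 0 without control replicate 3, where 3.43% of all genes were called lower and 3.81% higher. A single call in a list of 10 to 29 genes is near that share and is no result about the list. None of the genes named here was called by edgeR with all 6 libraries. Of 15 LEM domain and other inner membrane genes 1 was called lower, Nemp2 (12.0 to 8.84 CPM, -0.44 ± 0.13, edgeR adjusted p = 0.0378), with a list median of -0.06. In control replicate 3 Nemp2 was at 7.31 CPM, below every RBPMS library, and the 6-library value was -0.23. Of 10 LINC complex and torsin genes tested, 1 was called higher, Fhod1, a formin that links nesprin-2 to actin (44.7 to 54.2 CPM, 0.28 ± 0.068, edgeR adjusted p = 0.0145; list median -0.07). Its 6-library value was 0.36. Of 29 nuclear pore genes 1 was called higher, Aaas, a scaffold nucleoporin gene (44.1 to 53.2 CPM, 0.27 ± 0.068, edgeR adjusted p = 0.0169; list median 0.00), with 0.26 in 6 libraries. Of 14 genes of nuclear import 1 was called lower, the GTPase gene Ran (331 to 295 CPM, -0.16 ± 0.046, edgeR adjusted p = 0.0320; list median -0.02), with -0.51 in 6 libraries. None of the 17 genes of envelope breakdown, reassembly and repair was called by edgeR, 2 having an unadjusted p under 0.05 (list median -0.04). Its most abundant genes, Ppp2ca, a phosphatase subunit, and Chmp4b, of the ESCRT-III machinery that seals the envelope, had log2 fold changes of -0.10 (edgeR adjusted p = 0.198) and -0.13 (edgeR adjusted p = 0.0979).

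**Figure D5:**
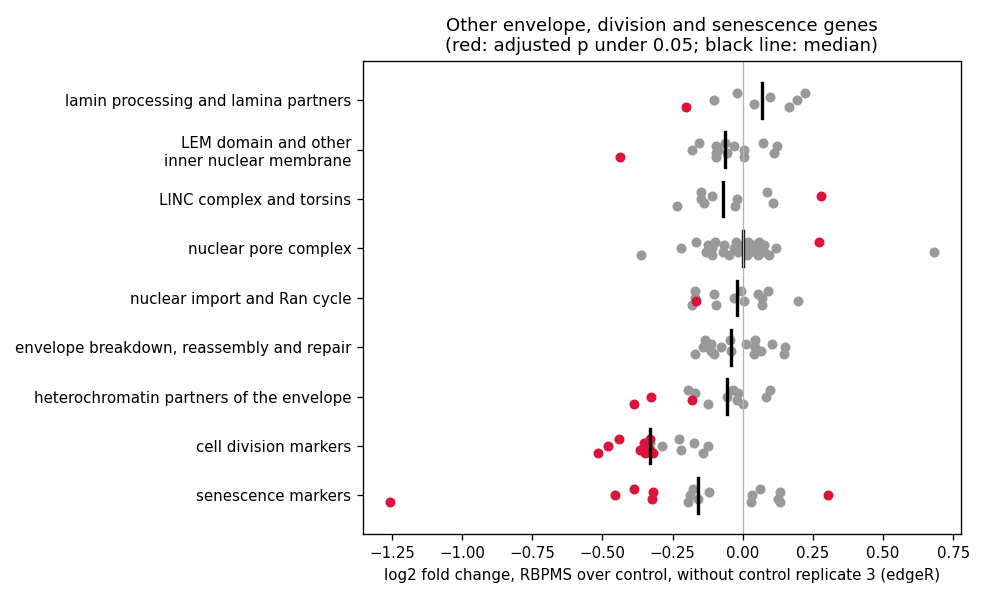
Log2 fold change of every tested gene of the 9 lists, RBPMS over control, without control replicate 3, with 1 row of points per list. Red points passed an edgeR adjusted p under 0.05, grey points did not, and black bars are list medians. The cell division list lies wholly below 0 with a median of -0.33, and the nuclear pore list is centred on 0.00.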

How the data were processed

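RNA from mouse endothelial cells was sequenced after removal of ribosomal RNA, per the labels' protocols, 3 control and 3 RBPMS libraries. The authors deposited a table of whole-number counts per gene with gene lengths. The submitters' processing notes list FastQC, Salmon and the mm10 build, and the sources used here give neither versions of these tools nor the step from Salmon estimates to whole counts. Counts were used as deposited. Genes were filtered with filterByExpr, scaled by TMM and tested with edgeR 4.0.16 (quasi-likelihood, group as the only term, Benjamini-Hochberg over all genes tested) in R 4.3.3, with all 6 libraries and without control replicate 3. Alternatives used DESeq2 1.42.0 and limma 3.58.1, other scalings and filters, a loess length trend (span 0.3), library quality weights, a replicate block and leaving out each library. The scripts were tested on simulated counts with 50 genes changed at each size. With all 6 libraries, 0% of the 1.5-fold and 34% of the 2-fold changes were called. Without control replicate 3 these shares were 76% and 90%. Unchanged genes made up 6 of 66 calls with all 6 libraries and 14 of 167 without control replicate 3. The simulated libraries all had the same spread per gene, and none had the length-linked shift of control replicate 3. The shares for all 6 libraries therefore do not measure the power of the real fit, which called 0 genes. Correlations and differences of levels used log2(CPM + 0.5), and lamin ratios an exact permutation test. The precision of a value is limited by the counts behind it, 78 to 6631 per library for the 10 genes.

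Replicate numbers occur in both groups, but the labels do not say that they mark pairs, so they were not taken as pairs. Deviations from the group means correlated at 0.045, -0.032 and 0.0046 for same-numbered libraries. For differently numbered libraries the values ran from -0.088 to 0.086. Control replicate 3 weighs on the deviation of every control, so these correlations cannot decide whether the numbers mark pairs. The 10 genes were named by the rule of the set. Of each list, the called genes without control replicate 3 were named, up to 4 with the smallest p, or the 2 most abundant where none was called, and for Lmnb1 the 5 genes with the most similar levels. The genes, lists and tests were chosen with earlier results of these data known. Positions are those of GENCODE M21 on GRCm38, and promoter windows are from RefSeq.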

Additional observations from a re-analysis of the deposited data

How the results depend on the processing

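Over the alternatives run, 260 of 280 fold changes of the 10 genes kept their direction and their side of the threshold, 13 changed sign, 3 lost and 4 gained the call. Most of these values are of genes called in neither main fit, so the share kept says little about the calls of Lmnb1 and Tmpo. Leaving control replicate 3 out of the 6 libraries, 1 of the alternatives, is the other main fit itself. With all 6 libraries, library quality weights called 2 of the genes (Lmnb1, -0.44, adjusted p = 0.00183, and Tmpo, -0.24, adjusted p = 0.0133, limma) and 23 list genes, of 1087 genes called in all, and leaving out 1 library called 0 to 2 of the genes and 0 to 23 list genes, with calls only where control replicate 3 was left out. The sign changes there were, with the length trend, Sun1 -0.0043, Sun2 -0.017 and Syne2 -0.13, with quality weights Sun1 -0.0039, Sun2 -0.025 and Syne2 -0.29, and on leaving out 1 library Sun2 (-0.019 to 0.11) and Syne2 (-0.28 to 0.47). Without control replicate 3, leaving out a further library called 0 to 2 of the genes (0 without control replicate 1, which leaves 1 control, and 1 without RBPMS replicate 1) and 4 to 27 list genes, and the fold change ranged from -0.52 to -0.32 for Lmnb1, -0.29 to -0.17 for Tmpo, -0.064 to 0.079 for Sun1 and -0.053 to 0.014 for Sun2. Sun1 also changed sign with the length trend (-0.0047) and with the replicate block (-0.010). The replicate block changed no call among the 10 genes: it kept 2 called without control replicate 3 (Lmnb1 and Tmpo, with 22 list genes) and 0 with all 6 libraries. Leaving out control replicate 3 lowered edgeR's biological coefficient of variation from 0.196 to 0.049; the cause of these changes was not tested. Lamin A/C over the B-type lamins kept a positive log2 difference on leaving out each library (0.06 to 0.19), as lamin B1 over B2, added after seeing the data, kept a negative one (-0.40 to -0.21). Syne2 had the lowest counts of the 10 genes, 179 to 239 in the libraries other than control replicate 3.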

Other observations

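Among the listed envelope genes, some were far from the other libraries in control replicate 3, and they are given here as values chosen after they were seen. Syne1, which encodes nesprin-1 and has a gene model of 40491 bases, was at 564, 487 and 85.1 CPM in the controls and at 581, 539 and 578 CPM with RBPMS. Syne1 had a log2 fold change of 0.11 in the 5 other libraries (edgeR adjusted p = 0.285) and of 0.58 in all 6 (edgeR adjusted p = 0.652). Ranbp2, a nucleoporin of the cytoplasmic pore filaments with a gene model of 11728 bases, was at 325, 301 and 177 CPM and at 337, 329 and 353 CPM. Nup210, a pore membrane protein, was at 1.82, 1.97 and 0.793 CPM in the controls and 2.54, 3.77 and 2.80 CPM with RBPMS, without overlap (log2 fold change 0.68, edgeR adjusted p = 0.126 without control replicate 3).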
